A study of Arabidopsis thaliana with 12 samples.

Results

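The genes described here are the 80 genes of the chloroplast genome that were detected in imbibed seeds of Arabidopsis thaliana. They are the rows of the deposited count table whose locus identifier begins with ATCG, the prefix of the chloroplast chromosome, and whose counts summed over the 12 libraries reach at least 15. The table lists 36795 loci, of which 133 carry that prefix. Of the other chloroplast rows, 28 had 0 counts in all libraries, and the 53 rows under the minimum, those 28 included, held 140 counts in all.

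The libraries came from after-ripened seeds of the wild type Col-0 and of the mutant odr1-2. All seeds were kept for 2 days at 4 °C and then soaked for 12 h either in distilled water, the control, or in 300 mM mannitol, a sugar alcohol used to impose osmotic stress. Each of the 4 groups had 3 biological replicates. The seeds were taken whole, so that embryo, endosperm and seed coat are mixed, and in such bulk samples fewer plastids or cells of a type and less RNA per cell cannot be told apart. The mutant is represented by 1 allele, and the transcript of the ODR1 gene was not analysed here.

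Chloroplast genomes keep genes for subunits of the photosystems, the cytochrome b6f complex, the ATP synthase, the NADH dehydrogenase-like (NDH) complex, rubisco and the plastid ribosome, beside genes for ribosomal and transfer RNAs. They are read by a bacterial-type RNA polymerase, whose core subunits are encoded in the plastid by rpoA, rpoB, rpoC1 and rpoC2, and by phage-type polymerases encoded in the nucleus. The rpoB gene cluster is a classical target of the nuclear polymerase, whereas photosynthesis genes are read mainly by the bacterial-type enzyme. Chloroplast messenger RNAs do not carry the long stable poly(A) tail of nuclear messenger RNAs, and short poly(A) additions are known as a mark of plastid RNA decay. In dry and imbibed seeds the plastids are not yet mature chloroplasts.

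That matters for what the counts hold, because poly-T beads were used to capture messenger RNA before random-primed copying. The values are therefore those of the chloroplast RNA that came through that capture, and what share of all chloroplast RNA this was is unknown. Stretches of A within a transcript could also pair with poly-T, so the longest A run was located in the coding sequence of each gene that could be named. The windows below are from the RefSeq chloroplast sequence of the assembly TAIR10.1, minus strand, in the direction of transcription. They are shown for the 5 genes with the highest mean CPM and for atpA, with the run in capitals and 20 bases on each side. The rpoB window covers chloroplast bases 25664 to 25713, that of rpoC1 bases 20973 to 21019 and that of rpoC2 bases 17906 to 17958. The psaA window covers bases 41777 to 41821, that of psaB bases 39051 to 39095 and that of atpA bases 11159 to 11203. All 6 lie within protein-coding exons.
rpoB: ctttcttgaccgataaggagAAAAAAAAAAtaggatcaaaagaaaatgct
rpoC1: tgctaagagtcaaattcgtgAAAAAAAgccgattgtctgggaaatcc
rpoC2: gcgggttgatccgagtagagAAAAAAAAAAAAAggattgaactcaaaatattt
psaA: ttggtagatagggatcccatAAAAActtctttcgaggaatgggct
psaB: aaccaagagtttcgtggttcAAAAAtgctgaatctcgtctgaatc
atpA: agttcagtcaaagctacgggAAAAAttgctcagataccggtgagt
The runs are 10 bases long in rpoB, 7 in rpoC1, 13 in rpoC2 and 5 in each of psaA, psaB and atpA. Over the 30 tested genes with a sequence the longest run had between 4 and 14 bases, with a median of 6.

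The identifiers are not paired with gene names in the deposited tables or the reference, so names were assigned by transcript length. The deposited counts and TPM values (read counts scaled to transcript length and library) together give the length the authors used for each gene. A name is given where a single chloroplast gene of the reference has that length. This gave 52 of the 80 genes a name. Another 23 matched several genes and 5 matched none, and these are called by their locus identifiers. The reference gives a product by locus for 6 members, among them cemA, rpl20 and clpP. All but ATCG00430 have that product under the assigned name. That locus was named ndhK by length, whereas the reference calls its product photosystem II reaction center protein G. The 50 named genes that are present once ran in the same order by locus number as along the chromosome.

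The library totals ran from 10060020 to 13693166 counts, and the chloroplast-encoded genes held 19175 counts over the 12 libraries. Of these counts 20.6% came from rpoB and 38.3% from rpoB, rpoC1 and rpoC2. A total of 42 genes had under 100 counts over all libraries, which limits the precision of each. With the low-count filter, 42 of the 80 genes could be tested and 38 could not. Levels are in CPM, the count of a gene per 1000000 counts of its library, with the SD between the 3 replicates, or in TPM where genes are compared with each other. Genes are said to have risen, or to be lower in odr1-2, where edgeR's quasi-likelihood test passed at a Benjamini-Hochberg adjusted p of 0.05 over 18413 genes, and log2 fold changes carry the standard error of that fit with n = 3 per group.

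In both genotypes the chloroplast-encoded RNA in the libraries was more abundant after mannitol, and in both media it was less abundant in odr1-2 than in Col-0. The summed level was 108 ± 4.11 CPM in Col-0 in water, 223 ± 13.3 CPM in Col-0 in mannitol, 68.8 ± 4.94 CPM in odr1-2 in water and 158 ± 7.2 CPM in odr1-2 in mannitol (SD, n = 3). The 4 groups did not overlap. Their libraries ran from 103 to 112, from 210 to 236, from 65.8 to 74.5 and from 154 to 167 CPM in that order. Mannitol over water was 2.07-fold in Col-0 and 2.3-fold in odr1-2. Col-0 over odr1-2 was 1.57-fold in water and 1.41-fold in mannitol.

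The 3 largest contributors had smaller ratios than the rest, a difference between genes that was not tested. Without rpoB, rpoC1 and rpoC2 the other 77 genes summed to 57.9 ± 4.15 CPM in Col-0 in water and 151 ± 12 CPM in mannitol, a ratio of 2.61. In odr1-2 they summed to 30.5 ± 3.61 CPM in water and 106 ± 6.42 CPM in mannitol, a ratio of 3.49. The 3 polymerase genes alone gave ratios of 1.45 and 1.36. Accordingly rpoB made up 28.2% ± 1.25 of all chloroplast-encoded counts in Col-0 in water and 14% ± 1.03 in mannitol, and 35.4% ± 2.61 in odr1-2 in water and 17.9% ± 1.63 in mannitol.

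**Figure D1:**
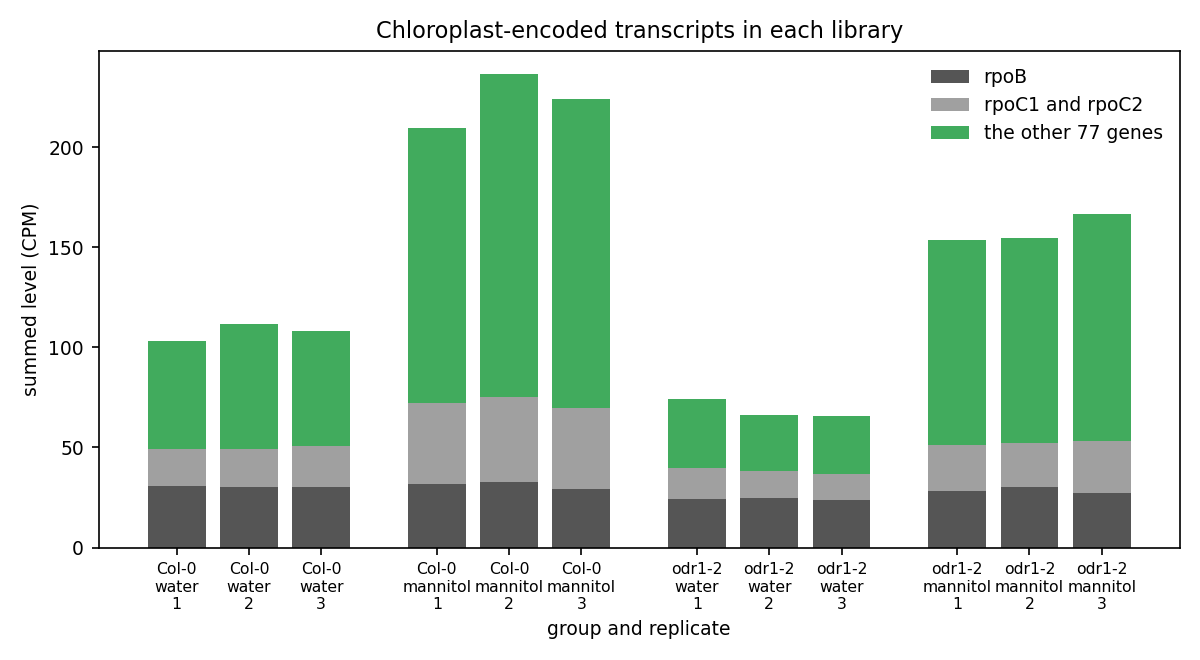
Summed level of the 80 chloroplast-encoded genes in each of the 12 libraries, in CPM, by group and replicate. The dark part is rpoB, the grey part rpoC1 and rpoC2, and the green part the other 77 genes, whose mean goes from 57.9 to 151 CPM with mannitol in Col-0 and from 30.5 to 106 CPM in odr1-2.

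The first question was how mannitol changed the chloroplast-encoded transcripts within each genotype. In Col-0, 36 of the 42 tested genes rose and 0 fell, against 21.0% of all tested genes that rose and 21.4% that fell. In odr1-2, 36 rose and 0 fell, against 21.2% and 21.3% of all tested genes. The median log2 fold change of the 42 genes was 1.52 in Col-0 and 1.82 in odr1-2, where the median of all tested genes was 0.00 in both. A total of 32 genes rose in both genotypes, 4 passed the test in Col-0 alone and 4 in odr1-2 alone, and 2 passed in neither. The genes rpl32 and rps4, both for ribosomal proteins, are those 2.

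The filter kept genes with enough counts in 3 libraries, so that a gene could enter through its mannitol libraries. Of the 42 tested genes, 23 exceeded the filter's level of 0.866 CPM in at least 3 of the 6 water libraries as well, and of these 20 rose in Col-0 and 21 in odr1-2. The other 19 passed the filter only with their mannitol libraries, so their mannitol differences are given as descriptions. They remain in the counts of rises above and in those of each class below, although they were tested through libraries where they were high. Among these 19 are psbB, psbC, petA, petB, ndhA, ndhG, ndhH, rps4, rps14, rpl20, cemA and accD. The 38 genes that were not tested summed to 8.29 ± 0.996 CPM in Col-0 in water and 16.4 ± 4.82 CPM in mannitol. In odr1-2 they summed to 4.13 ± 0.662 and 13.1 ± 1.42 CPM. Over all 80 genes the mean CPM was higher with mannitol for 72 in Col-0 and for 79 in odr1-2. When all 80 genes entered the fit without a filter, 40 rose in Col-0 and 42 in odr1-2 and 0 fell in either. Of all 25591 genes in that fit, 3735 rose and 3962 fell in Col-0, and 3773 rose and 3970 fell in odr1-2. The log2 fold change was positive for 12138 of them in Col-0 and 12079 in odr1-2, against 73 and 79 of the 80.

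**Figure D2:**
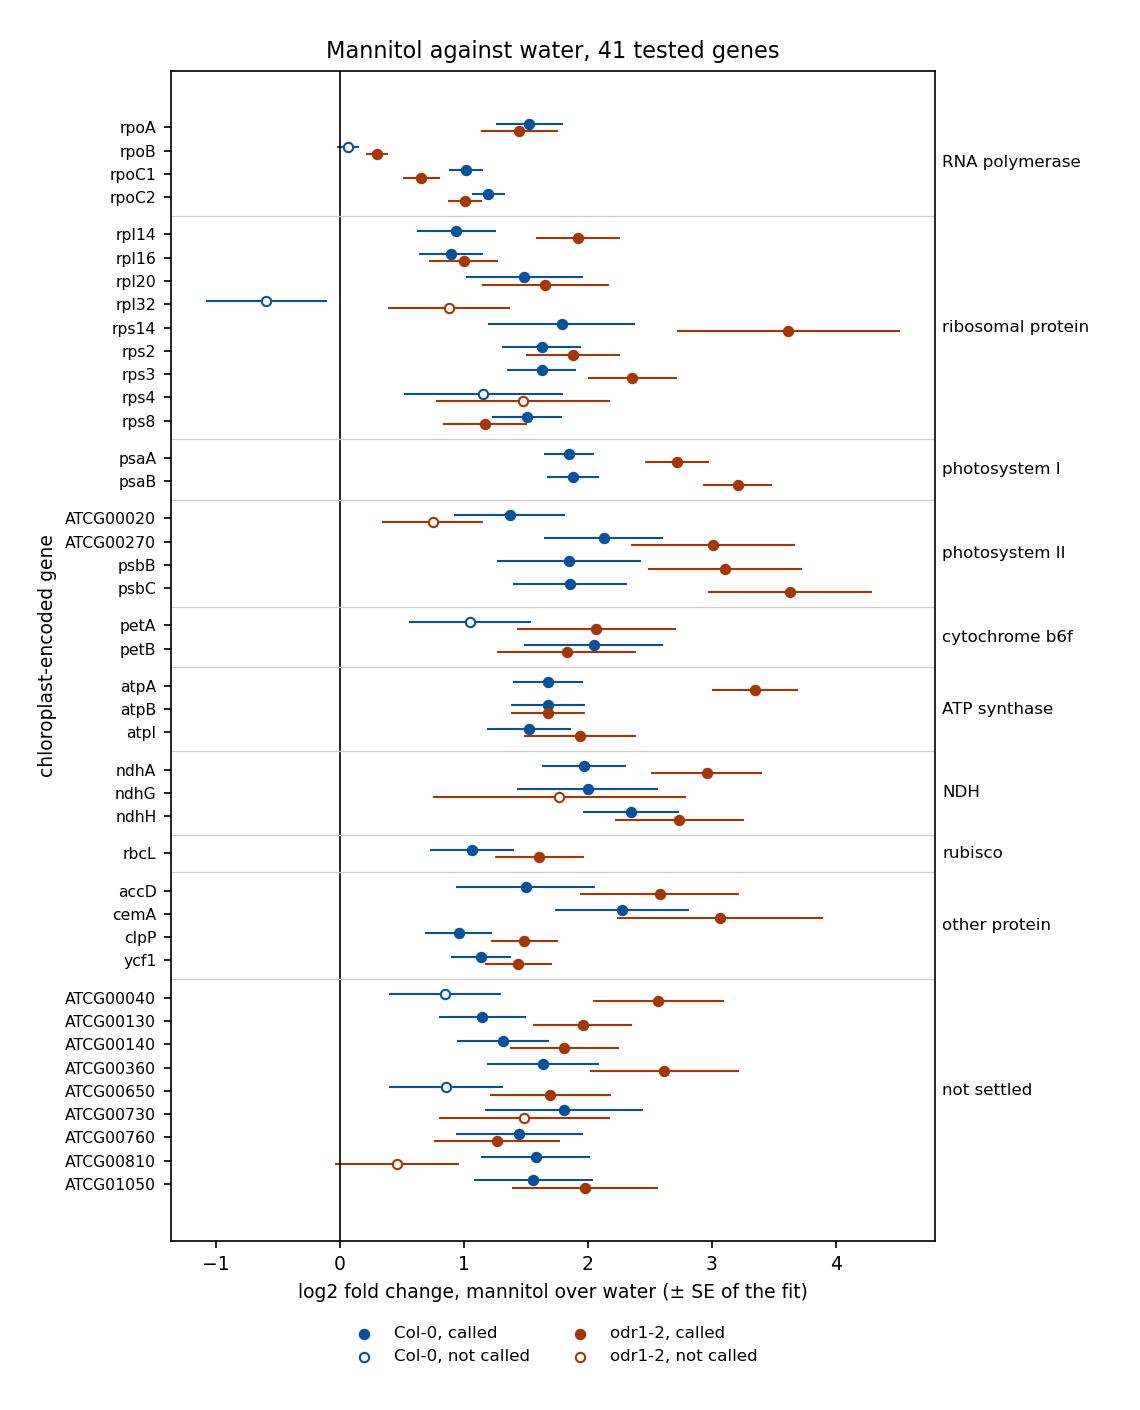
Log2 fold changes of mannitol over water for 41 of the 42 tested chloroplast-encoded genes, grouped by complex, in Col-0 (blue) and odr1-2 (red). Bars are the standard error of the edgeR fit, filled points passed an adjusted p of 0.05, and nearly all points lie right of 0, with rpoB closest to it among the polymerase genes and rpl32 in Col-0 left of it.

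The genes of the plastid RNA polymerase had the highest counts. The rpoB gene, for the beta subunit, had 315, 360 and 379 counts in Col-0 in water and 330, 377 and 338 in mannitol. In odr1-2 it had 244, 319 and 324 counts in water and 315, 342 and 313 in mannitol. In CPM these were 30.4 ± 0.178 and 31.2 ± 1.8 CPM in Col-0, and 24.3 ± 0.613 and 28.3 ± 1.56 CPM in odr1-2. The 2 Col-0 groups overlapped, whereas in odr1-2 each mannitol library lay above each water library. The log2 fold change was 0.07 ± 0.09 in Col-0 (edgeR adjusted p = 0.536), which was not called, and rpoB rose by 0.30 ± 0.09 in odr1-2 (edgeR adjusted p = 0.00738). The latter call was lost without odr1-2 mannitol replicate 2 (log2 fold change 0.25) and when TPM were fitted with limma-trend (0.18).

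The genes rpoC1 and rpoC2 encode the subunits beta' and beta''. For rpoC1 the counts were 85, 105 and 117 in Col-0 in water and 166, 202 and 220 in mannitol, and 90, 80 and 93 in odr1-2 in water and 113, 120 and 139 in mannitol. It rose by 1.02 ± 0.14 in Col-0 and by 0.66 ± 0.15 in odr1-2. For rpoC2 the counts were 109, 122 and 138 against 256, 289 and 251 in Col-0, and 67, 89 and 89 against 146, 133 and 162 in odr1-2. It rose by 1.20 ± 0.13 and 1.01 ± 0.14. In both genes every mannitol library lay above every water library of the same genotype in CPM. The rpoA gene, for the alpha subunit, lies elsewhere in the genome and rose by 1.53 ± 0.27 in Col-0 and 1.45 ± 0.31 in odr1-2.

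In the reference annotation rpoB, rpoC1, rpoC2, rps2, atpI, atpH, atpF and atpA follow each other in this order on the minus strand. Among those named by length, the levels were lower and the mannitol differences larger toward atpA, though not at each step. Mean TPM over the 12 libraries was 13.8 for rpoB, 8.47 for rpoC1, 5.08 for rpoC2, 5.46 for rps2, 4.16 for atpI and 3.3 for atpA. The log2 fold changes with mannitol in Col-0 were 0.07, 1.02, 1.20, 1.63, 1.53 and 1.68 in the same order, and in odr1-2 they were 0.30, 0.66, 1.01, 1.88, 1.94 and 3.35. All of these passed the test but that of rpoB in Col-0. The standard errors of rps2, atpI and atpA were between 0.28 and 0.45, so that in Col-0 the order among these 3 is not resolved. The lengths of atpH and atpF also match psaC and ycf4. By locus number ATCG00140 and ATCG00130 lie between atpI and atpA, which are the places of atpH and atpF. Their mean TPM was 10.5 and 5.39, both above that of atpI. They rose by 1.32 ± 0.37 and 1.15 ± 0.35 in Col-0, and by 1.81 ± 0.44 and 1.96 ± 0.4 in odr1-2. The lower levels and larger differences toward atpA thus hold for the genes named by length only.

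Counts were also set against those of rpoB within a library, where the total of the library cancels. For every 100 counts of rpoB there were 29.0 of rpoC1 in Col-0 in water and 56.3 in mannitol, and 30.2 and 38.5 in odr1-2. In Col-0 the libraries ran from 27.0 to 30.9 in water and from 50.3 to 65.1 in mannitol, without overlap. In odr1-2 they ran from 25.1 to 36.9 and from 35.1 to 44.4, and overlapped. For psaA there were 11.5 and 39.7 in Col-0, and 4.64 and 24.9 in odr1-2. The ranges over the 3 libraries were 8.89 to 15.6 in Col-0 in water and 38.2 to 40.9 in mannitol, and 4.08 to 4.94 and 17.5 to 29.5 in odr1-2, with no overlap between water and mannitol of the same genotype.

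**Figure D3:**
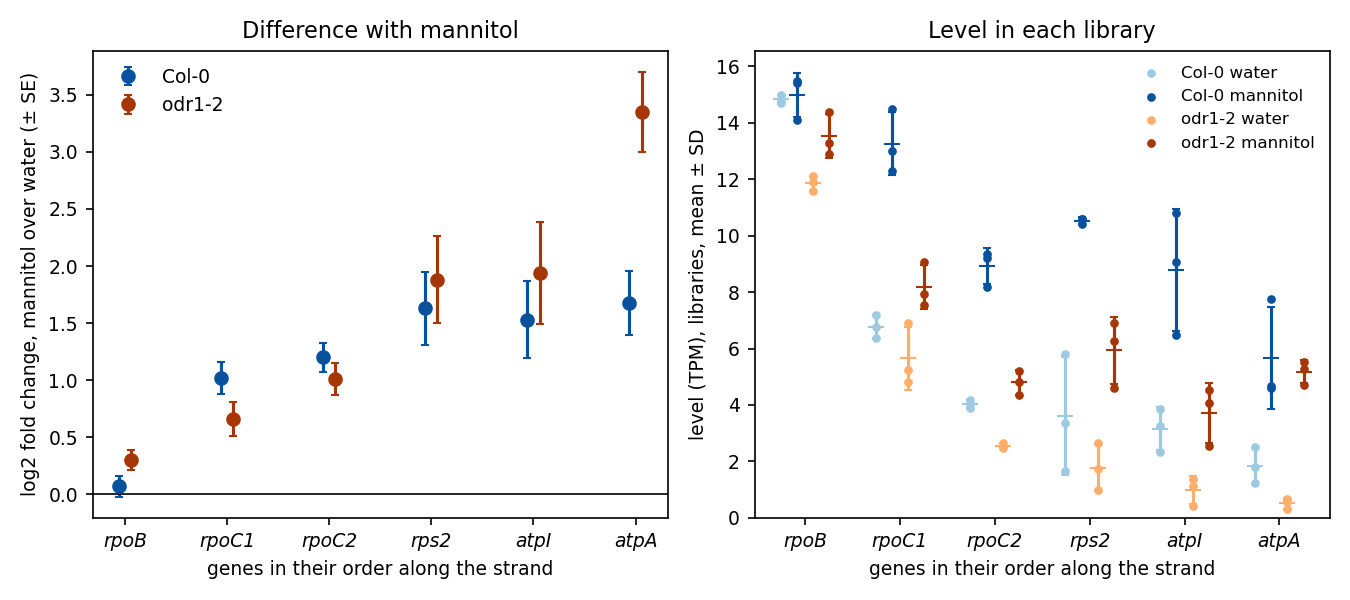
Mannitol difference (left, log2 fold change ± SE of the edgeR fit) and level (right, TPM of each library with the mean ± SD of its group) of 6 genes in their order along the strand from rpoB to atpA. The difference goes from 0.07 at rpoB to 1.68 at atpA in Col-0 and from 0.30 to 3.35 in odr1-2, while the mean TPM goes from 13.8 to 3.3. ATCG00140 and ATCG00130, which lie between atpI and atpA by locus number, are not drawn.

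Photosystem I genes showed the largest ratio of summed level among the complexes. The summed CPM of its 3 genes was 3.53-fold higher with mannitol in Col-0 and 7.09-fold higher in odr1-2. The psaA gene, for 1 of the pair of core proteins that hold the reaction centre, had 32, 32 and 59 counts in Col-0 in water and 135, 151 and 129 in mannitol. In odr1-2 it had 12, 13 and 16 counts in water and 55, 101 and 87 in mannitol. It rose by 1.85 ± 0.20 in Col-0 and by 2.72 ± 0.26 in odr1-2, and no mannitol library overlapped with a water library of either genotype. Its neighbour psaB, for the partner core protein, had 33, 33 and 38 counts against 117, 104 and 140 in Col-0, and 11, 6 and 11 against 66, 77 and 92 in odr1-2. It rose by 1.88 ± 0.21 and 3.21 ± 0.28, again with no overlap.

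Of the photosystem II genes 4 of 11 could be tested, and all 4 rose in Col-0 and 3 in odr1-2. The psbC gene, for a chlorophyll-binding inner antenna protein, had the largest log2 fold change in odr1-2, 3.63 ± 0.66. It went from 0, 5 and 0 counts in water to 11, 24 and 24 in mannitol. In Col-0 it went from 6, 11 and 8 counts to 14, 32 and 41, a log2 fold change of 1.86 ± 0.46. The second inner antenna gene, psbB, had log2 fold changes of 1.85 ± 0.58 and 3.11 ± 0.62. Its Col-0 call was lost without Col-0 mannitol replicate 1 or Col-0 water replicate 3 (1.29 to 1.46). Both psbC and psbB passed the filter only with their mannitol libraries, so these values are descriptions. The photosystem II gene with the highest mean CPM was ATCG00020, whose length matches both psbA and psbD, the genes of the reaction centre proteins. Its locus number precedes that of psbK, and along the chromosome psbA precedes psbK whereas psbD follows it. ATCG00020 had 6, 7 and 14 counts in Col-0 in water and 23, 22 and 21 in mannitol, and 6, 18 and 21 and then 20, 11 and 36 in odr1-2. The groups did not overlap in Col-0, where it rose by 1.37 ± 0.45, and overlapped in odr1-2, where the log2 fold change was 0.75 ± 0.41. The Col-0 call was lost without Col-0 water replicate 2 (1.20).

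For the cytochrome b6f complex, which links the photosystems, petB had log2 fold changes of 2.05 ± 0.56 in Col-0 and 1.83 ± 0.56 in odr1-2. Both petB and petA passed the filter only with their mannitol libraries, so their values are descriptions. The petA gene, for cytochrome f, had 8, 9 and 10 counts in Col-0 in water and 16, 12 and 25 in mannitol, and 3, 2 and 4 and then 13, 3 and 19 in odr1-2. Its log2 fold change was 1.05 ± 0.49 in Col-0 (edgeR adjusted p = 0.0782), which passed when only the groups compared were fitted (edgeR adjusted p = 0.0405). The groups did not overlap in Col-0 and overlapped in odr1-2. In odr1-2 the log2 fold change of petA was 2.07 ± 0.64, a call that was lost without odr1-2 mannitol replicate 3 (1.55).

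All 3 tested ATP synthase genes rose in both genotypes. The atpA gene, for the catalytic head's alpha subunit, had 18, 29 and 15 counts in Col-0 in water and 47, 90 and 52 in mannitol, and 3, 7 and 9 and then 59, 62 and 54 in odr1-2. It rose by 1.68 ± 0.28 in Col-0 and by 3.35 ± 0.35 in odr1-2, with no overlap in either. The beta subunit gene atpB rose by 1.68 ± 0.30 in both genotypes.

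The NDH complex carries electrons around photosystem I, and its genes gave the largest log2 fold change in Col-0. The ndhH gene went from 6, 10 and 12 counts to 42, 66 and 27 there, a log2 fold change of 2.35 ± 0.39. In odr1-2 it went from 4, 4 and 2 to 18, 24 and 20, a log2 fold change of 2.74 ± 0.52. The NDH gene with the highest mean CPM, ndhA, had 8, 16 and 15 counts against 46, 50 and 48 in Col-0, and 3, 7 and 2 against 33, 20 and 33 in odr1-2. Its log2 fold changes were 1.97 ± 0.34 and 2.96 ± 0.45, and water and mannitol did not overlap in either genotype. Both ndhH and ndhA passed the filter only with their mannitol libraries, so these values are descriptions. The ndhG gene had a log2 fold change of 2.00 ± 0.57 in Col-0. It exceeded the filter's level only in the 3 libraries of Col-0 in mannitol, so this value is given as a description. In odr1-2 it was not called, with 2, 0 and 1 counts in water and 1, 4 and 5 in mannitol. The ratio there was 3.56 with a 95% exact counting interval from 0.917 to 20.1. Such intervals hold the error of counting alone, as no molecular tags were used.

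The rbcL gene encodes the large subunit of rubisco, the enzyme that fixes carbon dioxide. It had 15, 15 and 25 counts in Col-0 in water and 25, 41 and 43 in mannitol, and 21, 11 and 7 and then 36, 29 and 44 in odr1-2. It rose by 1.07 ± 0.34 in Col-0 and by 1.61 ± 0.36 in odr1-2. In CPM the mannitol libraries lay above the water libraries in both genotypes.

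Of the 10 tested ribosomal protein genes, 8 rose in each genotype. The rpl16 gene had the highest level per length of all 80 genes, with a mean of 17.2 TPM. It had 26, 79 and 25 counts in Col-0 in water and 68, 76 and 84 in mannitol, and 30, 28 and 37 and then 53, 53 and 64 in odr1-2. One Col-0 water library was thus as high as the mannitol libraries, and the groups overlapped. It rose by 0.90 ± 0.26 in Col-0, a call lost without Col-0 water replicate 3 (0.58) and when only the groups compared were fitted (0.90), and by 1.0 ± 0.28 in odr1-2.

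The rps14 gene, next to psaB and on the same strand, had 2, 4 and 7 counts in Col-0 in water and 11, 10 and 22 in mannitol. In odr1-2 it had 0, 2 and 0 counts in water and 8, 7 and 11 in mannitol. Its log2 fold change was 1.79 ± 0.59 in Col-0, a call lost without Col-0 mannitol replicate 3 or Col-0 water replicate 1 (1.37 to 1.52). In odr1-2 it was 3.62 ± 0.90. The gene passed the filter only with its mannitol libraries, so these values are descriptions. With only 2 counts in odr1-2 in water, the ratio of mannitol to water there was 13.9 with a 95% counting interval from 3.48 to 121.

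The rpl32 gene had 14, 13 and 16 counts in Col-0 in water and 4, 16 and 7 in mannitol, and 8, 7 and 11 and then 21, 11 and 11 in odr1-2. Its log2 fold changes of -0.59 ± 0.49 and 0.88 ± 0.49 did not pass the test, and it was the only tested gene with a negative value in Col-0. Its groups overlapped in Col-0 but not in odr1-2, where mannitol was higher. The rps4 gene had 6, 5 and 3 counts against 10, 12 and 8 in Col-0, and 8, 1 and 1 against 6, 5 and 15 in odr1-2. Its values of 1.16 ± 0.64 and 1.48 ± 0.70 did not pass the test either, although the groups did not overlap in Col-0.

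Among the genes outside these complexes, ycf1, for a component of the inner envelope import machinery, had the highest mean CPM. It had 23, 42 and 48 counts in Col-0 in water and 49, 91 and 95 in mannitol, and 24, 24 and 18 and then 54, 43 and 64 in odr1-2. It rose by 1.14 ± 0.24 and 1.44 ± 0.27, with no overlap between water and mannitol in CPM. The cemA gene, for an envelope membrane protein, went from 4, 4 and 6 to 24, 18 and 23 counts in Col-0, a log2 fold change of 2.28 ± 0.54. This was the second largest value there, but cemA exceeded the filter's level in 0 of the 6 water libraries. In odr1-2 its log2 fold change was 3.07 ± 0.83, from 0, 2 and 1 to 14, 8 and 3 counts. The ratio there was 8.9 with a counting interval from 2.72 to 46.1. The clpP gene, for a protease subunit, rose by 0.96 ± 0.27 and 1.49 ± 0.27. For accD, which encodes a subunit of the enzyme that starts fatty acid synthesis, the log2 fold changes were 1.50 ± 0.56 and 2.58 ± 0.64. Like cemA, accD passed the filter only with its mannitol libraries, so the values of both are descriptions. The Col-0 call of accD was lost without Col-0 mannitol replicate 1 or Col-0 water replicates 1 or 2 (1.30 to 1.32).

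**Figure D4:**
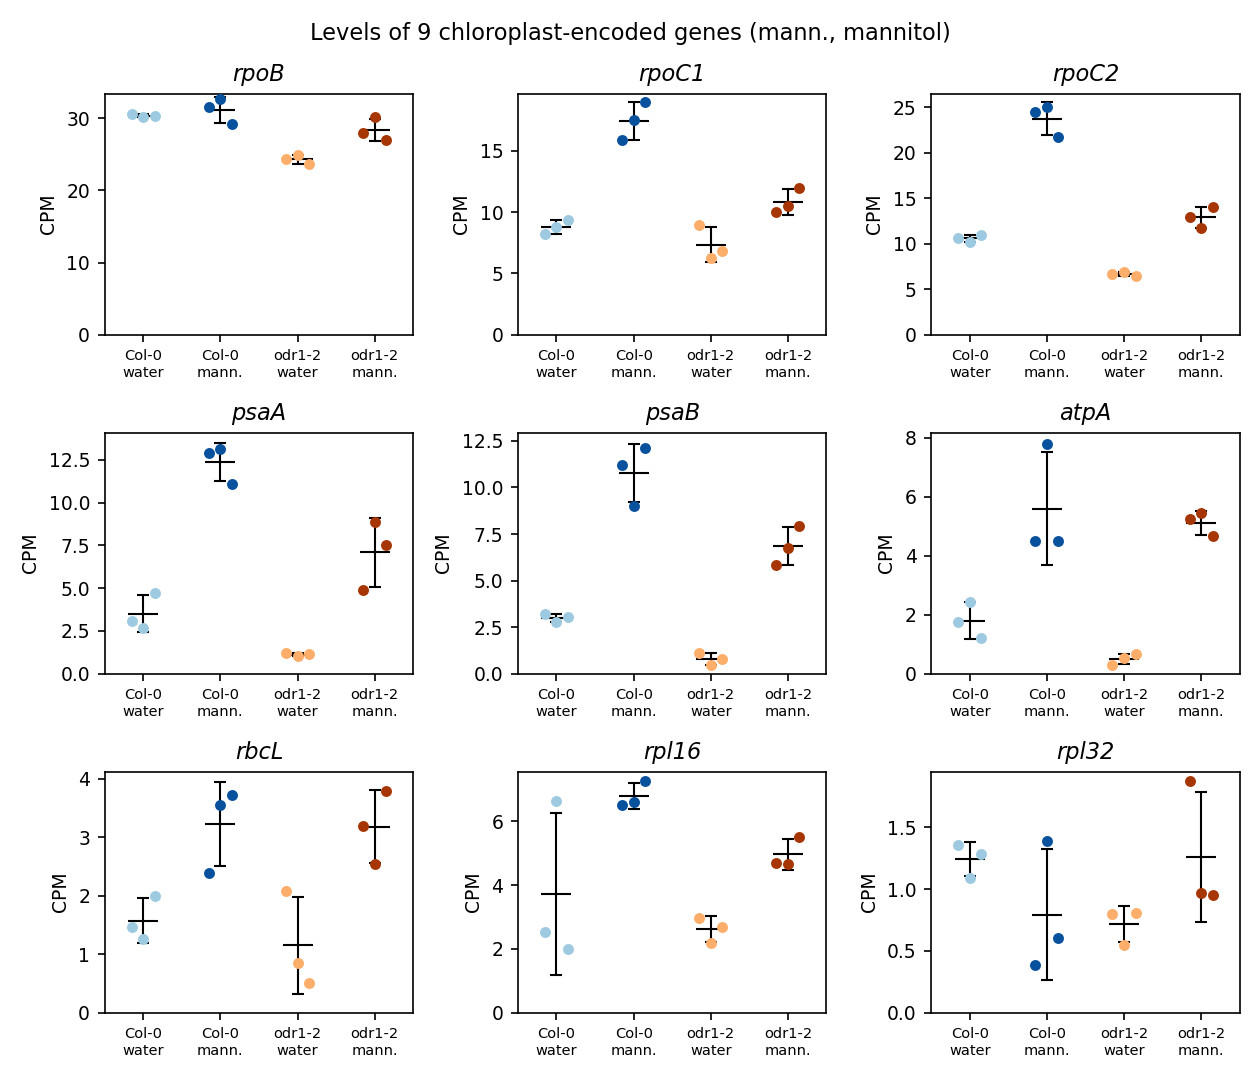
Level of 9 chloroplast-encoded genes in CPM in the 3 libraries of each group, with the mean and SD as bars. The rpoB libraries differ little between groups (means from 24.3 to 31.2 CPM), psaA and psaB are high in mannitol and lowest in odr1-2 in water, and rpl32 shows no common direction.

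The 8 RNA genes, for ribosomal or transfer RNAs, stayed below the filter, although ribosomal RNA is the most abundant RNA of a plastid. The highest of them, ATCG01180, matches the length of the 23S ribosomal RNA and had 4, 2 and 6 counts in Col-0 in water, 2, 10 and 4 in mannitol, 0, 4 and 3 in odr1-2 in water and 5, 7 and 8 in mannitol. Water and mannitol overlapped in Col-0, and in odr1-2 each mannitol library lay above each water library. Ribosomal RNA genes, ycf2 and rpl2 lie in the inverted repeat, of which the genome holds 2 copies, and how reads that fit both copies were counted is not given in the sources used here. The longest gene, ycf2, had 15 counts in all and the lowest mean of the 80 genes, 0.025 TPM.

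The second question was how odr1-2 differed from Col-0 in each medium. In water 18 of the 42 tested genes were lower in odr1-2 and 0 were higher, against 18.6% of all tested genes that were lower and 20.4% that were higher. In mannitol 13 were lower and 0 higher, against 19.6% and 20.5%. The median log2 difference was -0.87 in water and -0.54 in mannitol, where the median of all tested genes was 0.00 in both. The count in water was 10 of 24 tested when only the groups compared were fitted and 11 of 46 tested without odr1-2 water replicate 3, with 0 higher in each case. A gene could also pass the filter through its Col-0 libraries: 31 of the 42 exceeded the filter's level in at least 3 of the 6 odr1-2 libraries, and of these 16 were lower in water and 10 in mannitol. With all 80 genes in the fit 17 were lower in water and 13 in mannitol, and 0 were higher in either. Of all 25591 genes in that fit, 3324 were lower and 3740 higher in water, and 3575 were lower and 3761 higher in mannitol. The 13 lower genes in mannitol are near that share. Both comparisons of genotypes share libraries with the mannitol comparisons, so that a low value in odr1-2 in water enters both.

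The difference in water was largest for rps14 and psbC. The rps14 gene had a log2 difference of -2.53 ± 1.04 (edgeR adjusted p = 0.0456), with 13 counts in Col-0 against 2 in odr1-2. It exceeded the filter's level in the 3 libraries of Col-0 in mannitol and in 1 of odr1-2 in mannitol. The gene was thus tested through the genotype where it was high, and its difference is given as a description. The rps14 call was lost without any 1 of 6 libraries (-2.60 to -1.95), namely replicates 2 and 3 of Col-0 in water, replicates 1 and 3 of odr1-2 in water, Col-0 mannitol replicate 3 and odr1-2 mannitol replicate 1. It was also lost in the DESeq2 test (-2.74) and without the filter (-2.53). The psbC gene was lower by -2.29 ± 0.76, a call lost without Col-0 water replicate 2 or odr1-2 water replicates 1 or 3 (-2.06 to -1.66) and in the limma-trend fit (-0.66).

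Differences resting on more counts were those of the photosystem I genes and atpA. In water psaA was lower in odr1-2 by -1.62 ± 0.29, psaB by -1.93 ± 0.32 and atpA by -1.75 ± 0.41, and the odr1-2 libraries of all 3 genes lay below the Col-0 libraries. Among the polymerase genes rpoC2 was lower by -0.64 ± 0.15 and rpoB by -0.30 ± 0.09, while rpoC1 had a difference of -0.26 ± 0.16 that did not pass. The atpB gene had -0.09 ± 0.36, rbcL -0.51 ± 0.40 and clpP -0.22 ± 0.30, none of which passed.

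In mannitol psaA was lower in odr1-2 by -0.75 ± 0.19, psaB by -0.60 ± 0.19, rpoC2 by -0.83 ± 0.12 and rpoC1 by -0.63 ± 0.14. The psaB call was lost without Col-0 mannitol replicate 3 or odr1-2 mannitol replicate 1 (-0.50 to -0.49). For ndhG there were 15, 26 and 13 counts in Col-0 against 1, 4 and 5 in odr1-2, with no overlap and a log2 difference of -2.37 ± 0.60. This gene exceeded the filter's level in the 3 libraries of Col-0 in mannitol and in 0 of the other 9, so it was tested only through the group where it was high, and this difference is given as a description. The cemA gene had a difference of -1.34 ± 0.48. It exceeded that level in the same 3 libraries and in 1 of odr1-2 in mannitol, so its difference is also a description. The cemA call was lost without Col-0 mannitol replicates 1 or 3 or odr1-2 mannitol replicates 2 or 3 (-1.32 to -0.94). In contrast atpA had 5.6 ± 1.91 CPM in the wild type against 5.12 ± 0.411 CPM in odr1-2, a difference of -0.08 ± 0.24, and rbcL at 3.22 ± 0.721 and 3.18 ± 0.623 CPM, a difference of 0.03 ± 0.31, neither of which passed.

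**Figure D5:**
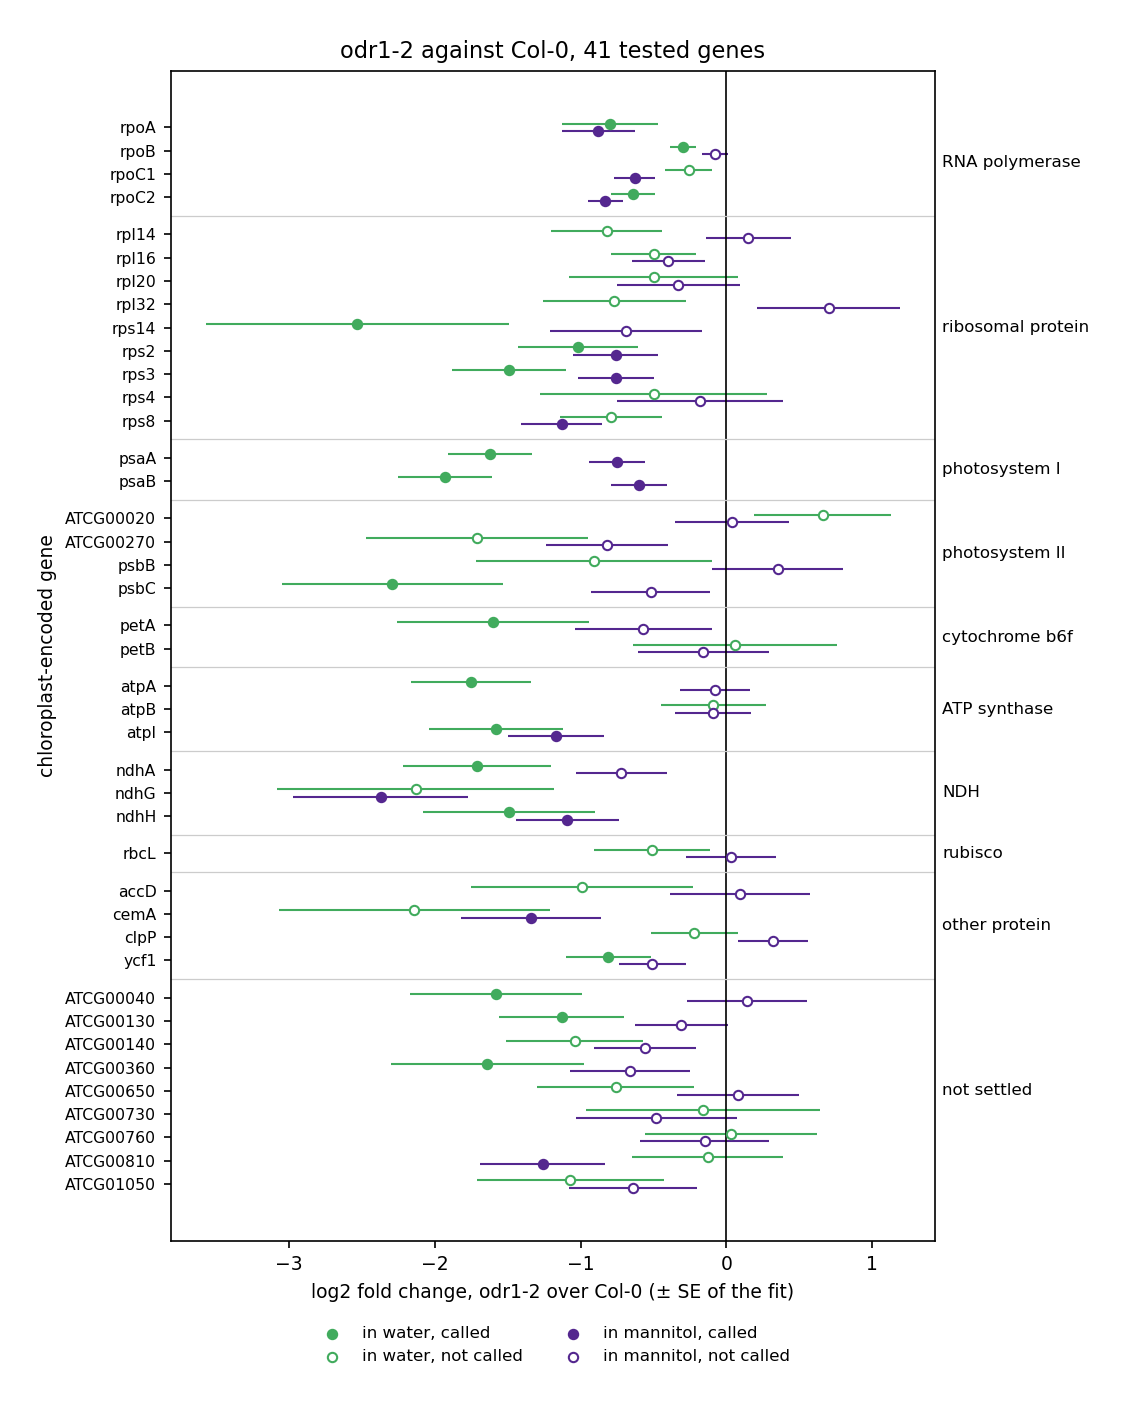
Log2 fold changes of odr1-2 over Col-0 for 41 of the 42 tested chloroplast-encoded genes, in water (green) and in mannitol (purple), with the standard error of the edgeR fit. Filled points passed an adjusted p of 0.05, and all of them lie left of 0, from -2.53 for rps14 in water to -0.30 for rpoB in water.

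Some genes were not seen at all in odr1-2 in water. The 6 genes psbK, ndhC, rps15, rps19, ATCG00510 and ATCG00600 had 0 counts in all 3 libraries of that group, which allows up to 3 counts or 0.082 CPM over the group, and in no other group was a gene at 0 in all libraries. For rps19 the ratio to this limit was 5.62 in Col-0 in water, where it had 5, 4 and 7 counts. The ratio was 6.41 in odr1-2 in mannitol, where it had 6, 4 and 8. Both ratios take the counts of the higher group as exact, so they are not lower bounds. These genes were too low for the test.

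The third question was whether mannitol acted differently in the genotypes. The interaction passed for 2 of the 42 genes, both with the larger rise in odr1-2, and 0 passed in the other direction, against 1.08% and 2.67% of all tested genes. They were atpA, whose rise exceeded that of Col-0 by 1.67 ± 0.48 (edgeR adjusted p = 0.0307), and psaB, by 1.33 ± 0.37 (edgeR adjusted p = 0.0227). The count was 0 without Col-0 water replicate 1 and in the limma-trend fit. It was 1 without any of 9 other libraries, which include all of odr1-2 in mannitol, and 2 without Col-0 mannitol replicate 2 or odr1-2 water replicate 1. These counts are not always of the same genes: the atpA call was lost without any 1 of 8 libraries, odr1-2 water replicate 1 among them, and the psaB call without any 1 of 5. Both were lost without Col-0 water replicate 1 or odr1-2 water replicate 2. For the other 40 genes the difference between genotypes in the response did not pass, including those that were called in only 1 of them.

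Lists of nuclear genes that serve the same plastids were counted in the same fit. Of 21 nuclear genes for plastid transcription, among them sigma factors and proteins bound to the polymerase, 0 rose and 6 fell in Col-0, and 0 rose and 13 fell in odr1-2. Of all tested genes 21.0% rose and 21.4% fell in Col-0, and 21.2% rose and 21.3% fell in odr1-2, so the 6 falls in Col-0 are near that share. Their medians were -0.10 and -0.20. Between genotypes 10 of the 21 were lower in odr1-2 in water and 14 in mannitol, with 1 higher in each, against 18.6% and 19.6% of all tested genes that were lower, and the medians were -0.13 and -0.29. The largest falls were those of PTAC2, a protein of the transcriptionally active chromosome, by 0.31 ± 0.06 in Col-0 and 0.47 ± 0.06 in odr1-2, and of PTAC6, by 0.31 ± 0.06 in Col-0. The gene SCA3, for the nucleus-encoded plastid polymerase, had a value of 0.00 ± 0.05 in Col-0 and fell by 0.19 ± 0.05 in odr1-2.

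Of 6 nuclear genes for plastid RNA decay and maturation, 1 rose and 1 fell in Col-0, and 1 rose and 3 fell in odr1-2. The shares of all tested genes were 21.0% and 21.4% in Col-0, and 21.2% and 21.3% in odr1-2. The exoribonuclease gene EMB2730 rose by 0.24 ± 0.07 in Col-0, and CRB, for a chloroplast RNA-binding protein, fell by 0.41 ± 0.12 in odr1-2. Of 17 tested nuclear genes for subunits of the complexes above, of 22 listed, 4 rose and 4 fell in Col-0, near the shares of all tested genes. In odr1-2, 2 of the 17 rose and 4 fell. Between genotypes, in water 8 of the 17 were higher in odr1-2 and 3 lower, and in mannitol 3 were higher and 3 lower. Of all tested genes 20.4% were higher and 18.6% lower in water, and 20.5% were higher and 19.6% lower in mannitol. The counts in mannitol are near those shares. The medians of the 17 were 0.09 in water and -0.13 in mannitol. The largest change with mannitol was that of RBCS2B, for a small subunit of rubisco, which fell by 1.73 ± 0.20 in Col-0 and by 2.00 ± 0.22 in odr1-2. It had 9.76 ± 1.03 CPM in Col-0 in water, against 470 ± 2.88 CPM for RBCS1A, the highest listed small-subunit gene. RBCS1A rose by 0.16 ± 0.04 in Col-0, as did rbcL, and had -0.02 ± 0.04 in odr1-2, which did not pass. RBCS3B, at 53.2 ± 2.55 CPM in Col-0 in water, fell by 0.70 ± 0.08 and 0.75 ± 0.08. Read counts may be shared among the small-subunit genes, which are close copies.

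The genes of the mitochondrial genome are the other transcripts without a stable poly(A) tail. Of 12 such genes, 8 could be tested, of which 3 rose in Col-0 and 5 in odr1-2 with mannitol and 0 fell, against 21.0% and 21.2% of all tested genes that rose. Their summed level was 59.6 ± 9.23 CPM in Col-0 in water and 109 ± 4.65 CPM in mannitol, and 58.7 ± 4.27 and 141 ± 5 CPM in odr1-2. Between genotypes, in water 4 were higher in odr1-2 and 1 lower, and in mannitol 6 were higher and 0 lower. Of all tested genes 20.4% were higher and 18.6% lower in water, and 20.5% were higher and 19.6% lower in mannitol.

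Markers of the seed's tissues also differed between the groups. The 2 seed reserve genes CRA1 and OLEO1, for a storage protein and an oil body protein, rose in both mannitol comparisons and were higher in odr1-2 in both media, with summed levels from 5894 to 6003 CPM in Col-0 in water, 14136 to 15222 in Col-0 in mannitol, 15655 to 15933 in odr1-2 in water and 24734 to 25561 in odr1-2 in mannitol. Endosperm markers summed to 774 to 786, 795 to 808, 1702 to 1728 and 1342 to 1378 CPM in the same order. Of these, MAN7 rose by 0.50 ± 0.05 with mannitol in Col-0 and EXPA2 fell by 0.36 ± 0.04 in odr1-2. The third endosperm marker was at 0 in 3 of the 4 groups. Seed coat markers summed to between 13.8 and 21.4 CPM, and 1 of 3, GL2, fell in both mannitol comparisons, by 0.50 ± 0.18 and 0.76 ± 0.21. Green leaf markers summed to between 0.84 and 2.4 CPM, with 2 of 3 genes at 0 in odr1-2 in water and 1 of 3 in each of the other groups. The part of these tissue markers in the chloroplast results was not tested.

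The features of the transcripts were set beside the responses of the 30 tested genes with a sequence, as a description across genes that share libraries and overlapping transcripts and are not independent. The longest A run had a Pearson correlation of -0.17 with the log2 fold change in Col-0 and of -0.25 in odr1-2, with Spearman values of -0.22 and -0.25. The percentage of A in the coding sequence had -0.44 and -0.39, with Spearman values of -0.48 and -0.41. With the log2 of the mean TPM the percentage of A had 0.54 and a Spearman value of 0.52. For the longest A run these were -0.098 and -0.085.

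Copies of chloroplast DNA in other genomes could also give reads to these genes or take them away. Of 49 named genes searched, 37 had no match of at least 50 bases at 95% identity in the nuclear or mitochondrial genome of the reference, and 2, atpI and rps2, were matched over their whole coding sequence in the nuclear genome. Their values are uncertain to that extent. For rbcL 42.8% of the coding bases were matched in the nuclear genome, for psaA 9.85% and for rpoC2 5.76%, and for rpoB 0% there and 12.8% in the mitochondrial genome. No such match was found for rpoC1, psaB or atpA. Chloroplast genes also overlap with each other and with genes on the other strand, and whether the counting used the strand is not given in the sources used here.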

How the data were processed

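RNA of 12 seed libraries was sequenced after poly-T capture, per the labels' protocols. Reads were handled with fastp 0.23.1, HISAT2 2.2.1 and HTSeq 2.0.5 on the genome build TAIR10, per the submitters' processing notes; settings for strand and multiply mapped reads are not given in the sources used here. The authors deposited a table of raw read counts per gene and a table of TPM per gene. Counts were used for all tests, TPM for levels between genes, for lengths and for an alternative fit.

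Tests on the counts were edgeR's quasi-likelihood tests (version 4.0.16, R 4.3.3), robust, with TMM scaling and filterByExpr (minimum count 10, minimum total 15), on all 12 libraries with 4 group means and 5 two-sided contrasts, adjusted by Benjamini-Hochberg over 18413 genes with a threshold of 0.05. CPM is the count per 1000000 counts of the library. Library totals ran from 10060020 to 13693166. Standard errors were derived from the F statistic, as the absolute log2 fold change over its square root. Precision is limited by the counts of each gene, and counting intervals are exact binomial (Clopper-Pearson) at 95%, with 3 counts as the limit that a count of 0 allows, over a group.

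Lengths came from counts divided by TPM, scaled in each library with 677 nuclear genes of over 2000 counts; all of these fitted the reference length within 0.1%. Names and sequences are RefSeq's for TAIR10.1. The values of 1 tested gene are not reported here; it remains in the counts. Copies were searched with blastn. Genes given in full are the one with the highest mean CPM in each class, the 5 highest of all, the 2 largest called rises and falls of each comparison, every tested gene called in neither mannitol comparison and, of the nuclear lists, the largest called change with a mean of at least 1 CPM. Other genes are examples of their class chosen after their values were seen. The genes and lists were chosen with earlier results of these data known. The replicate numbers of different groups did not pair the libraries, so no block entered the fit. The alternatives were DESeq2 1.42.0 size factors, total count scaling, no filter, a filter of 1 CPM in 3 libraries, a replicate block, the DESeq2 Wald test, limma-trend (limma 3.58.1) on log2(TPM + 1), the groups compared alone, a threshold of 0.01, and leaving out each library. On simulated data for mannitol against water in Col-0, with 18413 genes, 168 of 200 genes changed 2-fold were recovered, 53 of 100 low genes changed 2-fold, and 17 of 18113 unchanged genes were called.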

Additional observations from a re-analysis of the deposited data

Results flagged for a closer look

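The mannitol response of 2 chloroplast-encoded genes differed between the genotypes by a test of the difference itself. For atpA the log2 fold change with mannitol was larger in odr1-2 than in Col-0 by 1.67 (edgeR adjusted p = 0.0307). In water Col-0 had 1.79 ± 0.62 CPM and odr1-2 had 0.501 ± 0.184 CPM, and in mannitol they had 5.6 ± 1.91 and 5.12 ± 0.411 CPM (SD, n = 3). The call was lost when 8 of the 12 libraries were left out one at a time, with values from 1.37 to 1.71. For psaB the difference was 1.33 (edgeR adjusted p = 0.0227). Its level was 3.01 ± 0.218 and 0.788 ± 0.313 CPM in water and 10.8 ± 1.58 and 6.86 ± 1.04 CPM in mannitol. The call was lost without 5 of the 12 libraries in turn, with values from 1.06 to 1.37. In odr1-2 in water atpA had 3, 7 and 9 counts and psaB 11, 6 and 11, which limits both values. Both calls were also lost in the limma-trend fit, with 0.81 and 0.45.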

How the results depend on the processing

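No count of called genes for mannitol against water moved by over 1.5 times under any alternative run, with 31 to 40 rises in Col-0 and 29 to 42 in odr1-2, and 0 falls. The number tested also differed: the 29 were of 31 tested when only the groups compared were fitted, and the 42 of 80 without a filter. Leaving out 1 library gave 32 to 38 in Col-0, 36 to 41 in odr1-2, 11 to 20 lower genes in odr1-2 in water, 9 to 14 in mannitol and 0 to 2 for the interaction. In water the 18 lower genes of 42 tested became 10 of 24 tested when only the groups compared were fitted and 8 of 42 at an adjusted p under 0.01. The 2 interaction calls became 0 in the limma-trend fit and 0 at an adjusted p under 0.01, and that comparison needs all 4 groups, so the fit of the groups compared alone was not run for it. The percentage of the library became 0.0229, 0.0466, 0.0135 and 0.0347 as a share of the TPM sum, from 0.0108, 0.0223, 0.00688 and 0.0158 as a share of counts, in Col-0 in water, Col-0 in mannitol, odr1-2 in water and odr1-2 in mannitol. The cause of these shifts was not tested. Same-numbered libraries of different groups had correlations of their deviations from -0.026 to 0.03, and with a replicate block the counts in the 5 comparisons were 36, 36, 17, 13 and 2. Of 1404 single-gene values with 1 library left out 110 lost their call, 5 gained one and 0 changed direction, and of 910 under the other alternatives 25 lost it, 1 gained one and 0 changed direction. Total count scaling moved the median of all genes by at most 0.07 on the log2 scale. Depth limits the genes with few counts most: 38 of the 80 could not be tested.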
